A study of Mus musculus with 2 samples.

Results

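Gzmb-high CD8 T cells were examined in J558 allografts, tumours of a mouse plasmacytoma line grown in female BALB/c mice. A barcode was taken as a member when it met the following limits on genes and on unique molecular identifiers (UMIs, of which each stands for 1 captured transcript). It had over 2000 genes and under 15% of its UMIs in mitochondrial genes, at least 2 UMIs of Cd3d, Cd3e and Cd3g together, at least 2 UMIs of Cd8a and Cd8b1 together and no UMI of Cd4. Dividing barcodes (4 or more UMIs of Mki67 and Top2a), macrophage RNA (more than 2 UMIs of Csf1r, C1qa, C1qb and C1qc) and tumour RNA (3 or more UMIs of Trap1a) were left out. Members further had at least 3 UMIs of Gzmb. Of 11123 barcodes, 136 were members, 133 in the library from the allograft treated with TAK-931 and 3 in that from the vehicle-treated allograft. The mice were dosed for 6 days, orally and once daily, with TAK-931 at 60 mg/kg or with the vehicle, 0.5% methylcellulose. TAK-931 is an inhibitor of CDC7, a kinase needed to start DNA replication. One library was made per group, so that treatment, animal and library cannot be told apart, no p-value is given, and all intervals (95%) cover counting error only.

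CD8 T cells kill target cells that show a recognised peptide on MHC class I. Perforin, encoded by Prf1, opens the way into the target for granzymes, serine proteases kept in cytotoxic granules, of which granzyme B (Gzmb) cuts caspases. The serpins Serpinb9 and Serpinb6b belong to a family whose members can inhibit granzymes inside the killer cell. In tumours, CD8 T cells under lasting antigen carry inhibitory receptors such as PD1 (Pdcd1), LAG3 (Lag3) and TIM3 (Havcr2), while cells with the transcription factor TCF1 (Tcf7) are known as their less differentiated, self-renewing counterpart.

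The members were chosen by their measured counts of Gzmb, the CD8 and CD3 genes, Mki67 and Top2a, so the levels of these genes are given as a description, and so is every difference from barcodes without Gzmb. The TAK-931 library held 258 barcodes of the same gate whatever their Gzmb count, and 91 of these had no Gzmb UMI (Gzmb-negative CD8 barcodes, the contrast used throughout). Just outside the threshold, 19 barcodes had 1 and 15 had 2 Gzmb UMIs, and just inside it 16 had 3 and 12 had 4. Members held from 3 to 97 Gzmb UMIs with a median of 10, and 72 of the 133 held 10 or more. There was thus no gap in the counts at the threshold. Summed over members and scaled to their UMIs, Gzmb stood at 1139 CPM (counts scaled to a sum of 1000000, exact Poisson interval 1090 to 1190). After random thinning of each barcode to 4000 UMIs, which removes differences in depth, 94.0% of members still had a Gzmb UMI.

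**Figure D1:**
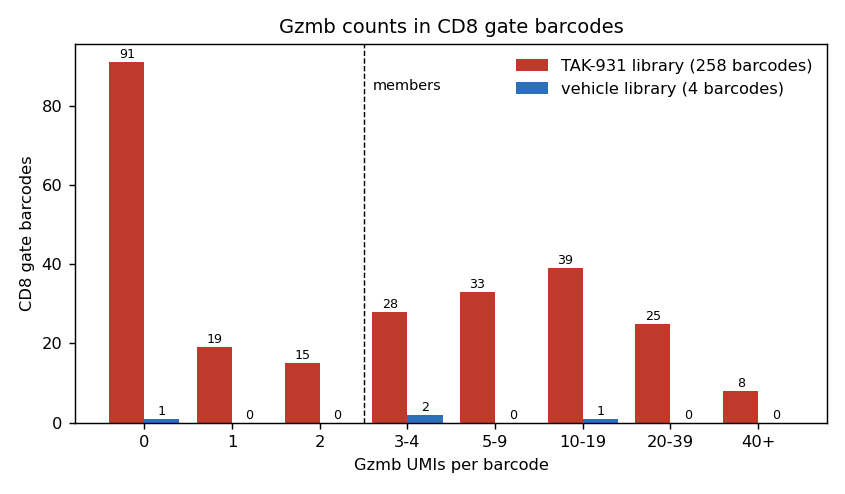
Number of CD8 gate barcodes (y axis) by their Gzmb UMIs (x axis) in the TAK-931 library (red, 258 barcodes) and the vehicle library (blue, 4 barcodes), with the number above each bar and members to the right of the dashed line. The TAK-931 library holds 91 barcodes at 0 and 8 at 40 or more, and the vehicle library 1 barcode at 0 and 3 members.

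The T cell and granule genes Trac and Nkg7, which the rule did not use, were counted in every member. Some other granule genes were not, with UMIs of Prf1 in 108 of 133 members, Cst7 in 89 and Gzma in 30. Nkg7, a protein of cytotoxic granule membranes, had UMIs in all 133 members (1 to 74, median 18) and stood at 1502 CPM (1445 to 1560) against 1007 CPM (944 to 1074) in Gzmb-negative barcodes. Trac, the constant part of the T cell receptor alpha chain, had UMIs in all 133 members as well (1 to 31, median 8). Its level was nearly the same in both classes, 680 CPM (642 to 719) in members and 636 CPM (586 to 689) in Gzmb-negative barcodes. The 8 NK cell markers summed to between 0 and 87 UMIs per member (median 3), at 368 CPM in members against 530.4 CPM in Gzmb-negative barcodes. Ncr1, Klra8 and Klra4 were at 0 in members and Klrb1c had 1 UMI, while Eomes (260.0 UMIs), Fcer1g (152), Klre1 (124) and Tyrobp (113), which T cells or myeloid cells can express as well, made up the rest. Klre1 was higher in members by a log2 ratio of 1.18 (0.59 to 1.82) and Eomes, Tyrobp and Fcer1g lower, by -0.35, -0.99 and -1.09. The 5 genes of gamma-delta T cells summed to 29.5 CPM in members against 16.0 CPM, with at most 4 UMIs per member. Tcrg-C4 and Sox13 were at 0, Trdc had 1 UMI and Tcrg-C1 had 6, while Tcrg-C2 had 45 UMIs in 26 members and a log2 ratio of 0.99 (0.049 to 2.05).

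Markers of other cells were present in part of the barcodes. The 10 macrophage markers summed to between 0 and 164 UMIs per member (median 3) and to between 0 and 59 (median 3) in Gzmb-negative barcodes, with Adgre1 at 0 in members, and 1 member held 23.9% of these UMIs. The 8 dendritic cell markers, of which Cd209a and Ccl22 were at 0 in members, had 129.8 CPM in members against 476 CPM in Gzmb-negative barcodes, and 48.9% of the member UMIs lay in 1 member. All 5 fibroblast markers were detected, at 1043 CPM in members against 21.4 CPM, but 98.8% of the UMIs lay in 1 member. Among B cell markers Ms4a1, Pax5 and Fcmr were at 0, and of 5 neutrophil markers, Csf3r, Cxcr2 and Retnlg. Of 5 endothelial markers, Cldn5 was at 0 and the sum was 16.4 CPM in members against 68.4 CPM. The 6 markers of CD4 and regulatory T cells, which include the activation genes Il2ra and Ctla4, summed to between 0 and 19 UMIs per member, with Cd40lg at 0 and Foxp3 at 7 UMIs in all. The 10 plasmacytoma markers summed to 327 CPM in members, 469 CPM in Gzmb-negative barcodes and 125032 CPM in plasmacytoma barcodes of the same library (at least 3 Trap1a UMIs and no CD3 UMI), with Iglc2 at 0 in members. The part of these transcripts in the results was not tested, except that the values were recomputed without barcodes of mixed content (20 or more UMIs over the macrophage, dendritic, B, neutrophil, endothelial and fibroblast markers).

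Members were more deeply sequenced than the contrast. The TAK-931 library held 6558 barcodes and 77369283 UMIs and the vehicle library 4565 barcodes and 144767193 UMIs. The median member of the TAK-931 library had 12364 UMIs (5510 to 37054) and 2959 genes, with 4.83% mitochondrial UMIs, and the median Gzmb-negative barcode had 9342 UMIs, 2478 genes and 5.36% mitochondrial UMIs. The libraries shared 8 barcode sequences, none of them a member.

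The share of members was compared between the treatments on several denominators. Members made up 3.81% (133 of 3488, exact Clopper-Pearson interval 3.20 to 4.50) of the TAK-931 barcodes that passed the gene and mitochondrial limits and 0.0872% (3 of 3441, 0.0180 to 0.255) of the vehicle barcodes, a difference of 3.73 percentage points (Newcombe interval 3.12 to 4.42). Of the barcodes with CD3 UMIs, 15.4% (133 of 866) and 9.68% (3 of 31) were members, 5.68 points apart with an interval from -9.71 to 12.5. Of the CD8 gate, 51.6% (133 of 258, 45.3 to 57.8) and 75.0% (3 of 4, 19.4 to 99.4) were members, a difference of -23.4 points (-44.8 to 21.9). The first difference thus lay outside counting error, while both intervals among T cells included 0, with only 31 and 4 vehicle barcodes in these denominators. The plasmacytoma gate held 2992 vehicle and 67 TAK-931 barcodes, and its share enters the first denominator.

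The 3 vehicle members had 10, 3 and 4 Gzmb UMIs at 10734, 6482 and 9854 UMIs in total. Their Nkg7 counts were 18, 19 and 23, and together they stood at 2216 CPM (1691 to 2853). Prf1 had 1, 0 and 3 UMIs, Havcr2 had 0, 6 and 2, Lag3 had 0, 5 and 6 and Pdcd1 had 5, 2 and 8. Lag3 therefore stood at 406 CPM (203 to 727) against 179 CPM (160 to 200) in TAK-931 members, and Prf1 at 148 CPM (40.3 to 378) against 311 CPM (285 to 338). Irf8, Gzmd, Gzme, Gzmf, Gzma, Ifng and Tcf7 had no UMI in any of them, which at 27070 UMIs allows up to 111 CPM (3 counts of the sum). In TAK-931 members Gzmd, Gzme and Gzmf stood at 661 CPM (624 to 700.1), 688 CPM (650 to 728) and 679 CPM (641 to 718), but at 4000 UMIs per barcode they were detected in 31.6%, 36.8% and 22.6% of members. A count of 0 in 3 vehicle members sets no limit on this share, so no difference in these genes was detectable.

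The constant segment of the T cell receptor beta chain differed between the 3 vehicle members and most TAK-931 members. A T cell uses either Trbc1 or Trbc2 in its rearranged beta chain. Both nevertheless had UMIs in all 3 vehicle members and in 38 of 133 TAK-931 members. Trbc1 had 30, 20 and 51 UMIs in the 3 vehicle members and Trbc2 had 1, 4 and 8. Trbc1 thus exceeded Trbc2 in 3 of 3 (exact interval 29.2% to 100%). This interval treats the barcodes as independent, though they come from 1 library, and whether they share a clone was not tested. In the TAK-931 library Trbc2 exceeded Trbc1 in 120 of 133 members (90.2%, 83.9 to 94.7) and in 74 of 91 Gzmb-negative barcodes (81.3%, 71.8 to 88.7). Trbc1 exceeded Trbc2 in 13 members (9.77%, 5.31 to 16.1) and in 16 Gzmb-negative barcodes (17.6%, 10.4 to 27.0), intervals that overlap. A variable segment of the beta chain was counted in 65 of 133 members (48.9%). The segments seen in most members were Trbv20 in 23 members (17.3%), Trbv13-1 in 17 (12.8%) and Trbv13-2 in 15 (11.3%), while in Gzmb-negative barcodes they were Trbv13-1 in 9 of 91 (9.89%), Trbv20 in 7 (7.69%) and Trbv13-2 in 6 (6.59%). Counts of variable segments in 3' libraries rest on few UMIs, here 101 over all members, and no clone was called from them.

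Genes of the granzyme cluster carried some of the largest differences, so their upstream sequences are shown first, together with that of Prf1. Gzmb (ENSMUSG00000015437) lies at chr14:56258838-56262260 on the minus strand of mm10 (GRCm38, GENCODE vM21), and on the same strand of the same chromosome lie Gzmc (chr14:56231441-56234656), Gzmf (chr14:56205263-56211417), Gzmg (chr14:56156582-56159579), Gzmd (chr14:56129556-56132608) and Gzme (chr14:56117626-56120625). Prf1 (ENSMUSG00000037202) lies at chr10:61297833-61304680 on the plus strand. The 250 bases before the RefSeq start (GRCm38.p6) of Gzmb (chr14:56262335-56262584), Gzmd (chr14:56132594-56132843), Gzmf (chr14:56211408-56211657) and Prf1 (chr10:61297586-61297835) are printed 5′ to 3′ on the strand of the gene. Capitals mark the letters TGTGGT (the RUNX motif, or ACCACA where it lies on the other strand) and TGANTCA (the AP-1 motif).
Gzmb: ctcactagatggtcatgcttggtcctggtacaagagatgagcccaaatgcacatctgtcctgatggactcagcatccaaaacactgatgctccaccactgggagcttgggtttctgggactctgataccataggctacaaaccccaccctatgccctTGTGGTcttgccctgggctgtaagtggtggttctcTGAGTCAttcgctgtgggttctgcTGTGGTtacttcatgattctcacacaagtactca
Gzmd: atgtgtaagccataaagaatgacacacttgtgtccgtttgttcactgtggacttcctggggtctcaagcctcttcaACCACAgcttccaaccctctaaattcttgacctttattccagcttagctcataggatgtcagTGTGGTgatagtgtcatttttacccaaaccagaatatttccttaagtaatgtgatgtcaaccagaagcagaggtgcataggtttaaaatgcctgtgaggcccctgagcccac
Gzmf: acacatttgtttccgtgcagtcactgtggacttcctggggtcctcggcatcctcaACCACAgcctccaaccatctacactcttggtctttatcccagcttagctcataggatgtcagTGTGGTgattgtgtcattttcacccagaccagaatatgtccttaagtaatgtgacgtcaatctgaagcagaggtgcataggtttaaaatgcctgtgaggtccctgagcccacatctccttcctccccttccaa
Prf1: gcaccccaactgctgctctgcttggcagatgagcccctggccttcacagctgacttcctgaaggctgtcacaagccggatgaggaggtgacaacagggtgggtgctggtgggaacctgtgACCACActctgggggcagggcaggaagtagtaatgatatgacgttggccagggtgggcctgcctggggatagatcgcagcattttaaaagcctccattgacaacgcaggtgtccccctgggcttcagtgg
TGTGGT or its reverse complement occurred 2 times in each of Gzmb, Gzmc, Gzmd, Gzme, Gzmf and Gzmg and 1 time in Prf1, and at least once in 14.0% of 32817 promoter windows of this length. TGANTCA occurred in Gzmb alone among these 7 genes and in 6.75% of all windows. Neither GGTGTG (T-box, 16.3% of windows) nor TGGAAA (NFAT, 18.6%) occurred in the 7 windows on either strand. A match of letters is no evidence of a bound site. The Gzmd and Gzme windows were 95.6% identical and the Gzmd and Gzmf windows 88.2%, while Gzmb and Gzmd shared 61.6% of their aligned bases.

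**Figure D2:**
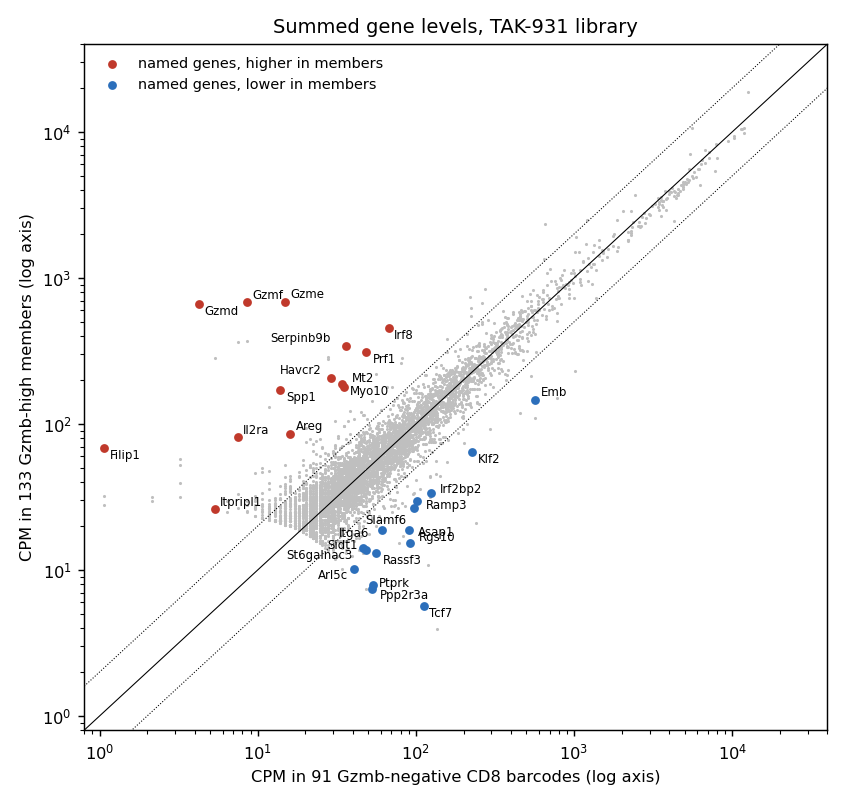
CPM of each gene summed over 133 members (y axis, log) and over 91 Gzmb-negative CD8 barcodes (x axis, log) of the TAK-931 library, for genes with UMIs in both. The solid line marks equal levels and the dotted lines 2-fold differences. Gzmd, Gzmf, Filip1 and Gzme lie farthest above the line and Tcf7 farthest below it among the coloured genes, which are limited to genes with no barcode over 20% of the UMIs.

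The contrast between members and Gzmb-negative barcodes asked which other genes went with a high Gzmb count. Of 5221 genes that reached 50 UMIs over the members and the contrast combined, 194 (3.72%) were at least 2-fold higher and 111 (2.13%) at least 2-fold lower in members, and the median log2 ratio of all genes was 0.048. Part of these differences rested on single barcodes, since 1 barcode held over 20% of the UMIs on the higher side for 20 of the higher and 37 of the lower genes. The remaining 174 higher and 74 lower genes were detected in at least 10% of the barcodes of that side without such a barcode, and the most extreme of each are labelled in the plot of gene levels.

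Granzymes D, E and F stood out among the higher genes. Gzmd had 0 to 172 UMIs per member (median 0) and 0 to 3 per Gzmb-negative barcode, 1166 UMIs against 4 in all, which gives a log2 ratio of 7.27 (exact interval 5.91 to 9.15). Gzmf had 0 to 146 UMIs per member and 0 to 6 per Gzmb-negative barcode, with a log2 ratio of 6.31 (5.33 to 7.52), and Gzme had 0 to 79 and 0 to 8 UMIs, with a log2 ratio of 5.52 (4.77 to 6.40). The median member had no UMI of any of them, so these levels came from a subset. Gzmc (120 UMIs against 1) had a log2 ratio of 5.99 (3.49 to 11.3), and Gzmg (89 UMIs against 0) was at least 15.7-fold higher when 3 counts are set for the Gzmb-negative sum. Transcripts of this cluster are alike. The Gzmd and Gzme transcripts were 94.8% identical and the Gzmd and Gzmf transcripts 87.6%, so a read can be hard to place and the separate counts of these genes are uncertain. Gzmb itself shared no run of 31 bases with Gzmd, Gzme, Gzmf or Gzmg, but 1.35% of its runs of this length also occurred in Gzmc.

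A sum of Gzmc, Gzmd, Gzme, Gzmf and Gzmg, called the granzyme cluster here, was therefore also counted. At least 1 UMI was found in 65 of 133 members (48.9%, 40.1 to 57.7), 44 members had 10 or more, and 25 had Gzmd, Gzme and Gzmf together. The member with the most had 377 UMIs, 9.96% of the total. Among Gzmb-negative barcodes 8 of 91 (8.79%, 3.87 to 16.6) had a UMI, with at most 8. Among plasmacytoma barcodes, which should lack these genes, 6 of 67 (8.96%, 3.36 to 18.5) had a UMI at a median depth of 61291 UMIs, with 1 UMI each, so that single UMIs read as background. The share was 31.1% (19.9 to 44.3) in members with 3 to 9 Gzmb UMIs and 63.9% (51.7 to 74.9) in members with 10 or more.

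Other genes of the cytotoxic granule list differed less. Prf1 had 0 to 44 UMIs per member (median 2) and 0 to 6 per Gzmb-negative barcode (median 0), at 311 CPM (285 to 338) against 48.1 CPM (35.1 to 64.4), a log2 ratio of 2.69 (2.25 to 3.16). At 4000 UMIs per barcode it was detected in 58.6% of members, 11.0% of Gzmb-negative barcodes and 0 of 67 plasmacytoma barcodes, which allows a share of up to 4.48% (3 counts of 67). Serpinb9b, Gzma, Tcf7, Ifng, Il2ra, Pdcd1 and Havcr2 were at 0 of 67 there as well, and Lag3 was found in 2 (2.99%). Serpinb9b, of the same serpin family as Serpinb9, was 3.24 higher on the log2 scale (2.74 to 3.78) and was detected in 29.3% of thinned members against 4.40% of Gzmb-negative barcodes. Serpinb6b stood at 678 CPM (640.1 to 718) against 261 CPM (229 to 296), and Serpinb9 at 416 CPM (387 to 447) against 211 CPM (182 to 242). Fasl, the ligand of the death receptor Fas, stood at 146 CPM (129 to 165) against 81.3 CPM (64.0 to 102). Gzma had a log2 ratio of 3.33 (2.76 to 3.96), yet 1 member held 31.4% of its UMIs and it was detected in 12.8% of thinned members. Gzmk, a granzyme known from less differentiated effector cells, was at 113 CPM (98.2 to 130.2) in members and 117 CPM (95.7 to 141) in Gzmb-negative barcodes. Serglycin (Srgn), which packs granzymes into granules, was also nearly level, at 1118 CPM (1069 to 1168) against 1208 CPM (1139 to 1281). Of the 21 listed genes, 19 had enough UMIs, 8 were at least 2-fold higher and 0 at least 2-fold lower, with a median log2 ratio of 0.85 that does not change with Gzmg set at its bound.

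Inhibitory receptors did not differ as a block. Havcr2 had 0 to 27 UMIs per member (median 2) and 0 to 5 per Gzmb-negative barcode, at 206 CPM (186 to 229) against 28.9 CPM (19.0 to 42.0), a log2 ratio of 2.84 (2.27 to 3.46). Entpd1, the surface enzyme CD39, had a log2 ratio of 1.99 (1.57 to 2.44), Lag3 of 1.34 (0.96 to 1.75) and Pdcd1 of 0.77 (0.53 to 1.02). Ctla4 stood at 121 CPM (105 to 138) against 148 CPM (124 to 174) and Cd96 at 49.9 CPM (40.0 to 61.5) against 44.9 CPM (32.4 to 60.7), while Tigit was lower in members at -1.24 (-2.01 to -0.48), with 28 UMIs against 35. Of the 11 listed receptors 7 had enough UMIs, 3 were at least 2-fold higher and 1 at least 2-fold lower, and the median was 0.77. At 4000 UMIs per barcode Pdcd1, Lag3 and Havcr2 were found together in 19 of 133 members (14.3%) and in 1 of 91 Gzmb-negative barcodes (1.10%). Singly they were found in 64.7%, 46.6% and 44.4% of members and in 44.0%, 18.7% and 7.69% of Gzmb-negative barcodes. Whether they occurred together more often than these single shares give was not tested.

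Tcf7 and the lymph node homing receptor gene Ccr7 marked the other side. Tcf7 had 10 UMIs in all members together, at most 3 each in 7 members, and 105 UMIs in Gzmb-negative barcodes, at most 10 each, a log2 ratio of -4.31 (-5.41 to -3.37). It was detected in 3.01% of thinned members (0.825 to 7.52) and 28.6% of thinned Gzmb-negative barcodes (19.6 to 39.0). Ccr7 stood at 21.0 CPM (14.8 to 28.9) against 240 CPM (209 to 273), although 1 Gzmb-negative barcode held 56 of the 224 UMIs. Further genes of naive and memory cells were lower, among them Slamf6 (a log2 ratio of -1.87), the trafficking factor Klf2 (-1.82), Lef1 (-1.57), the interleukin 7 receptor Il7r (-1.54) and S1pr1 (-1.49), the receptor that guides exit from lymphoid tissue. Satb1 stood at -0.20 (-0.44 to 0.036). Ly6c1 and Ly6c2 (1.75 and 1.81), surface proteins of memory and effector cells, went the other way. Of the 18 listed genes 12 had enough UMIs, 7 were at least 2-fold lower and 2 at least 2-fold higher, with a median of -1.51.

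Transcription factors of effector and exhausted cells were split. Irf8, a factor known from myeloid cells and also used by effector CD8 T cells, had 0 to 40 UMIs per member (median 2) and 0 to 13 per Gzmb-negative barcode, with a log2 ratio of 2.75 (2.38 to 3.14). Id2, a repressor that keeps effector cells differentiated, had a median of 14 UMIs per member against 4 and a log2 ratio of 1.07 (0.94 to 1.20). Runx3, which acts in the CD8 lineage, stood at 421 CPM (391 to 452) against 278 CPM (245 to 314). Tox, a factor of exhausted cells, was at 198 CPM (178 to 220) against 218 CPM (189 to 250), and Eomes at 147 CPM (130 to 166) against 188 CPM (161 to 218). The early response gene Nr4a1 was lower in members, at -1.40 (-2.13 to -0.69). Of the 18 listed factors 14 had enough UMIs, 2 were at least 2-fold higher and 1 at least 2-fold lower, and the median was -0.05.

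**Figure D3:**
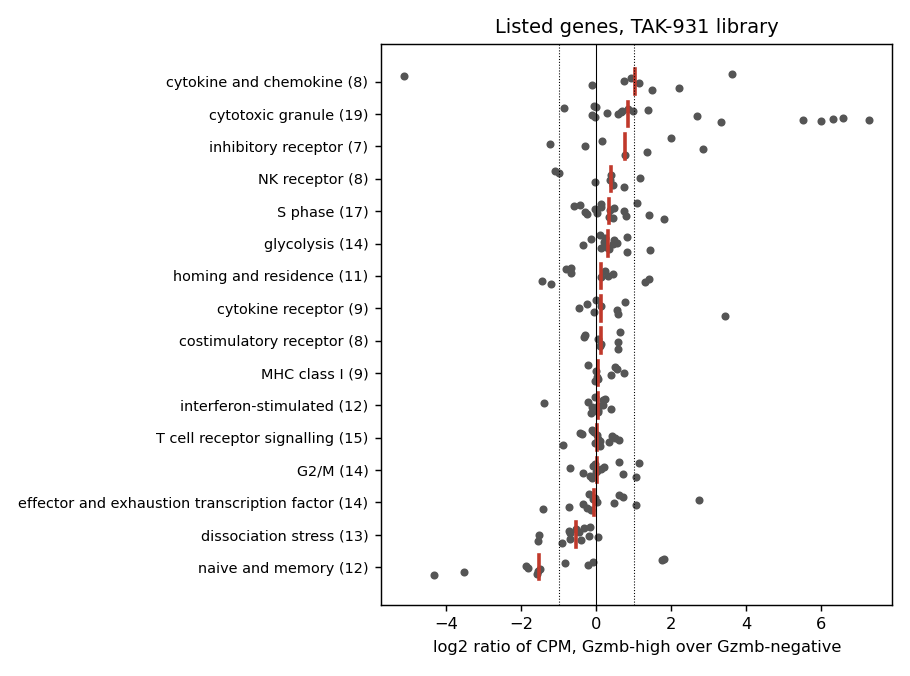
Log2 ratio of CPM, members over Gzmb-negative CD8 barcodes of the TAK-931 library (x axis), for each listed gene that reached 50 UMIs (points, number of genes in brackets) and the median of each list (red bars), with dotted lines at 2-fold. The cytokine and chemokine, cytotoxic granule and inhibitory receptor medians are highest at 1.03, 0.85 and 0.77, and the naive and memory median is lowest at -1.51.

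Secreted factors were mostly higher. Spp1 (osteopontin) had 301 UMIs against 13, a log2 ratio of 3.62 (2.82 to 4.54), and Csf1, the growth factor of macrophages, 166 against 19, a ratio of 2.21 (1.52 to 2.98). Ifng stood at 104 CPM (89.8 to 121) against 37.4 CPM (26.1 to 52.0) and was detected in 27.8% of thinned members, 8.79% of Gzmb-negative barcodes. Ccl5, a chemokine of effector T cells, had a median of 124 UMIs per member and 37 per Gzmb-negative barcode, a log2 ratio of 0.92 (0.88 to 0.97). Xcl1, a chemokine that attracts cross-presenting dendritic cells, was lower at 7 UMIs against 128, with a log2 ratio of -5.11 (-6.45 to -4.02), and 1 Gzmb-negative barcode held 29 of these UMIs. Of 14 listed genes 8 had enough UMIs, 4 were at least 2-fold higher and 1 at least 2-fold lower. Tnf and Il2 were not among these 8.

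Receptors for cytokines, chemokines and costimulation differed gene by gene. Il2ra, the high-affinity chain of the interleukin 2 receptor, had 143 UMIs against 7 and a log2 ratio of 3.44 (2.36 to 4.78), and was detected in 17.3% of thinned members against 3.30% of Gzmb-negative barcodes. The other 8 cytokine receptor genes tested lay within 2-fold, Il2rb among them at 0.59 (0.44 to 0.74). In the homing list Cxcr6 (1.30) and Ccr2 (1.41) were at least 2-fold higher and Cxcr3 (-1.21) and Cxcr4 (-1.45) at least 2-fold lower. None of 8 costimulatory receptors passed 2-fold, with Tnfrsf9 (4-1BB) at 0.58 (0.35 to 0.82) and Cd28 at -0.34 (-0.55 to -0.12). Of 8 NK receptor genes, Klre1 was at least 2-fold higher (1.18) and the signalling chain Fcer1g at least 2-fold lower (-1.09), and Klrd1, the CD94 chain, stood at 0.75 (0.57 to 0.93).

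Genes of general cell state differed by list. None of 15 T cell receptor signalling genes passed 2-fold (median 0.03), and none of 9 MHC class I genes (median 0.05). The 12 interferon-stimulated genes had a median of 0.05, with Rtp4 at -1.38 (-2.02 to -0.76). Of 14 glycolysis genes 12 were higher, with a median of 0.31, and the glucose transporter Slc2a3 alone passed 2-fold at 1.44 (0.80 to 2.14). Genes induced by tissue dissociation were lower in 12 of 13 cases with a median of -0.54 (9 of them with an interval below 0), and Fosb (-1.55) and Dusp1 (-1.51) passed 2-fold. Although dividing barcodes had been left out, 3 of 17 S phase genes (Mcm5, Rrm1 and Pola1) and 2 of 14 G2/M genes (Ube2c and Cbx5) were at least 2-fold higher, with medians of 0.35 and 0.02.

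Some of the most extreme genes stood outside these lists. Filip1 (68.0 CPM against 1.07 CPM, a log2 ratio of 5.99 with an interval of 3.49 to 11.3), Myo10, an unconventional myosin (2.46), the growth factor Areg (2.42), the metallothionein Mt2 (2.33) and Itpripl1 (2.29) were higher in members. Emb, a membrane glycoprotein, stood at 146 CPM (129 to 165) against 568 CPM (521 to 618), which is lower by a log2 ratio of -1.96 (-2.18 to -1.74). The remaining lower genes were the phosphatase gene Ptprk (-2.83), Ppp2r3a (-2.75), the G protein regulator Rgs10 (-2.59), Asap1 (-2.26), Rassf3 (-2.09), Arl5c (-1.99), Irf2bp2 (-1.89), Sidt1 (-1.82), Ramp3 (-1.78), the integrin Itga6 (-1.70) and St6galnac3 (-1.70).

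The size of several ratios changed with how the classes were set. Tcf7 stood at -3.12 with the limit lowered to over 1000 or over 500 genes and at -5.75 with at least 5 Gzmb UMIs for members, and Klf2 at -1.12 and -1.13 under the lower gene limits. Against barcodes with 0 to 2 Gzmb UMIs the log2 ratio was 5.01 for Gzmf and 3.13 for Filip1, and without the limit on dividing it was 4.33 for Gzme, -1.70 for Ptprk and -0.81 for Ramp3. With classes set on 6000 thinned UMIs (at least 2 Gzmb UMIs against 0, 128 and 104 barcodes), which changes the depth, the Gzmb threshold and the contrast together, the log2 ratio was 4.98 for Gzmd, 3.92 for Gzme, 2.23 for Havcr2, 1.86 for Irf8, 1.73 for Serpinb9b, 1.51 for Prf1 and 2.84 for Filip1. With the original classes limited to barcodes of 8000 to 25000 UMIs it was 6.73 for Gzmd, 6.28 for Gzme, 3.04 for Havcr2, 2.70 for Irf8, 4.43 for Serpinb9b, 2.32 for Prf1 and 5.49 for Filip1. The genes named for their extreme ratios kept their direction under each alternative.

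Levels were next followed over the Gzmb count, in barcodes with 0, 1 to 2 (34 barcodes), 3 to 9 (61) and 10 or more UMIs (72). Tcf7 stood at 112, 54.4, 12.4 and 0.961 CPM and Ccr7 at 240, 91.7, 26.2 and 17.3 CPM, each lower with every step. Prf1 stood at 48.1, 115, 206 and 384 CPM, Havcr2 at 28.9, 88.8, 141 and 252 CPM and Entpd1 at 55.6, 115, 177 and 252 CPM, each higher with every step. Pdcd1 had reached 286 CPM (233 to 348) at 1 to 2 Gzmb UMIs and was at 320 and 331 CPM beyond. Irf8 stood at 67.4, 132, 189 and 634 CPM and Gzmf at 8.55, 54.4, 34.5 and 1127 CPM. For both the largest step lay between 3 to 9 and 10 or more Gzmb UMIs. In the bin of 1 to 2 Gzmb UMIs, 1 barcode held 85.4% of the UMIs of the granzyme cluster, to which Gzmf belongs. Gzme was already at 496 CPM (446 to 550.1) with 3 to 9 Gzmb UMIs. Gzmk was at 117, 206, 138 and 96.1 CPM and Tox at 218, 241, 218 and 184 CPM, without an order that followed Gzmb. The bins of 3 to 9 and of 10 or more Gzmb UMIs were also deeper, with medians of 10308 and 12955 UMIs. The bins of 0 and of 1 to 2 had medians of 9342 and 9086 UMIs.

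**Figure D4:**
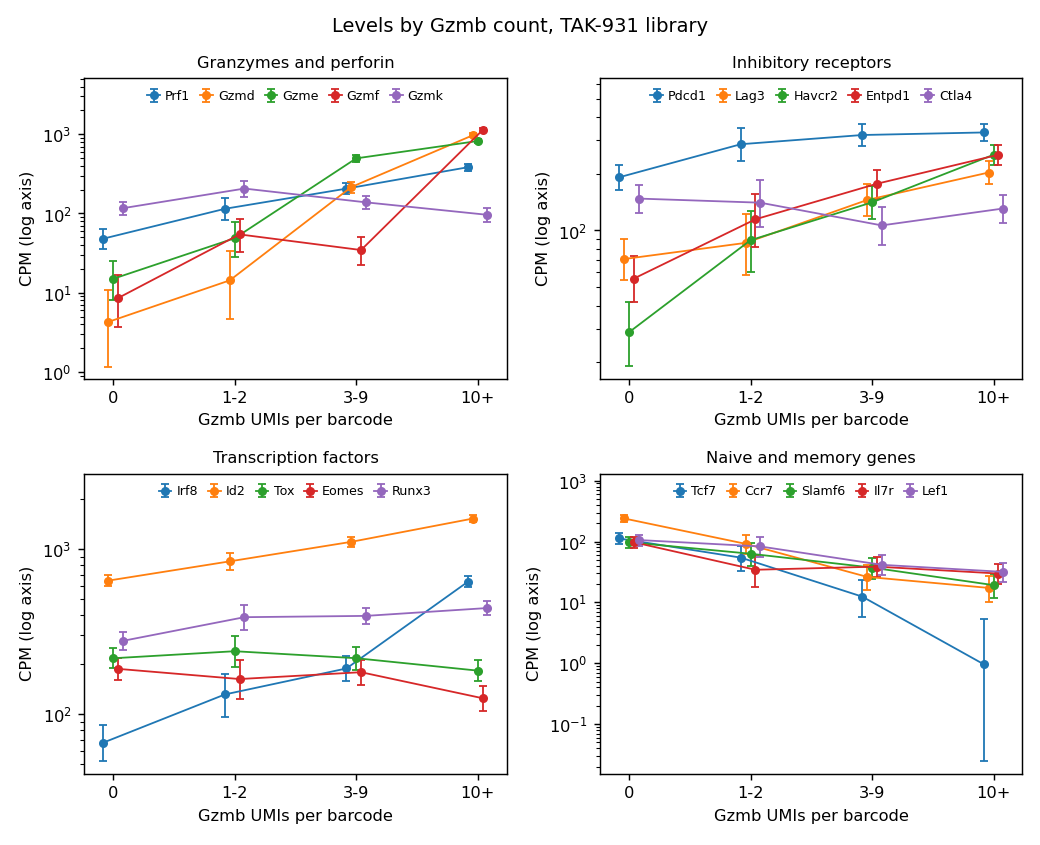
CPM (y axes, log) of granzymes and perforin, inhibitory receptors, transcription factors and naive and memory genes in CD8 gate barcodes of the TAK-931 library with 0, 1 to 2, 3 to 9 and 10 or more Gzmb UMIs (x axes). Bars are exact Poisson 95% intervals. Prf1, Havcr2 and Entpd1 climb over the bins, Tcf7 descends from 112 to 0.961 CPM, and Gzmk, Ctla4, Tox and Eomes show no such climb.

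Several granzyme genes and Ccl5 had some of the largest ratios of variance to mean between members. At 4000 UMIs per member the ratio of variance to mean, which is 1 for pure counting error, had a median of 1.17 over 1447 genes. It was 34.7 for Ccl5, 27.4 for Gzma, 16.4 for Gzmf, 13.9 for Gzmd and 12.8 for Gzme, against 3.52 for Gzmb, 2.82 for Prf1, 1.75 for Havcr2 and 1.47 for Pdcd1. The collagen genes Col3a1, Col1a1 and Col1a2 exceeded all of these through 1 member, the one with the fibroblast markers. Between Ccl5 and Gzme also lay the MHC class II genes Cd74 (19.2) and H2-Aa (13.0), with 46.1% and 45.8% of their thinned UMIs in 1 member each, and the abundant transcripts Malat1 (15.7) and Tmsb4x (13.6). The 13 members with the most UMIs held 74.9% of the Gzmd, 62.4% of the Gzme and 77.9% of the Gzmf UMIs. They held 32.2% of the Gzmb and 21.8% of the Nkg7 UMIs. Every member was chosen to hold at least 3 Gzmb UMIs, so the rule itself limits the share and the ratio of Gzmb. Ccl5 had 0 to 443 UMIs per member and was detected in 132 of 133. Its ratio does not show concentration in few members, since the ratio also rises with the level of a gene that varies. At 4000 UMIs per member Ccl5 had 6749 UMIs in all, against 613 for Gzmb. The top 10% of thinned members held 27.4% of the Ccl5 UMIs, less than for Gzmb (29.7%), Prf1 (42.9%) and Havcr2 (43.6%).

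Over the 133 thinned members, which share 1 library and are not independent samples, Spearman's rho described which genes went together. It was 0.85 for Gzmd and Gzme, 0.63 for Gzmd and Gzmf and 0.58 for Gzme and Gzmf, pairs whose transcripts are alike. Gzme had a rho of 0.51 with Id2 and 0.41 with Il2ra, and Gzmf had 0.49 with Irf8 and 0.48 with Serpinb9b. Gzme had a rho of -0.39 with Ccl5 and -0.37 with Gzmk. Members with more Gzme UMIs thus tended to have fewer of Ccl5 and Gzmk. Gzmb itself had a rho of 0.38 with Id2 and 0.36 with Gzmf.

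**Figure D5:**
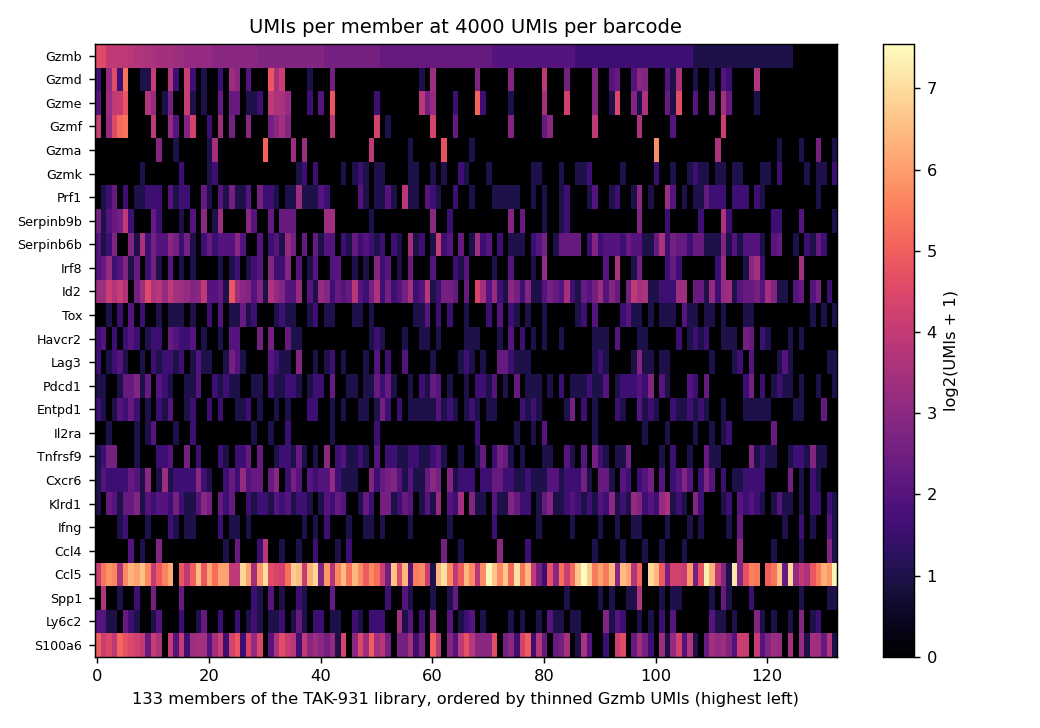
UMIs of 26 genes (rows) in each of the 133 members of the TAK-931 library (columns, thinned to 4000 UMIs and ordered by Gzmb), as log2(UMIs + 1) from black (0) to pale yellow. Gzmd, Gzme and Gzmf light up in overlapping subsets of members, while Ccl5 is bright in most columns and Gzma in few.

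Members were also compared with dividing barcodes, with 4 or more UMIs of Mki67 and Top2a in an otherwise identical gate. There were 110 of them in the TAK-931 library (median 25634 UMIs), 45.3% (38.9 to 51.8) of the 243 barcodes with at least 3 Gzmb UMIs when both are counted. Among barcodes without Gzmb the dividing share was 26.0% (32 of 123, 18.5 to 34.7), and with 1 to 2 Gzmb UMIs 42.4% (25 of 59, 29.6 to 55.9). Of 6975 genes with enough UMIs, 185 (2.65%) were at least 2-fold higher and 540 (7.74%) at least 2-fold lower in members. The lower genes included 37 of 40 S phase and 39 of 43 G2/M genes, which the gate itself selects for. Havcr2 and Pdcd1 were level between the classes, at log2 ratios of -0.02 (-0.20 to 0.17) and -0.07 (-0.22 to 0.079), and Prf1 stood at 0.31 (0.15 to 0.47). Of the granzyme cluster, members had more Gzmf (a log2 ratio of 1.98, 1.84 to 2.13), Gzmg (1.54, 1.03 to 2.05), Gzme (1.10, 0.98 to 1.22) and Gzmd (1.09, 0.97 to 1.22) than dividing barcodes and less Gzmc (-0.64, -0.96 to -0.34), of which 1 member held 30.0% of the UMIs. Members also had more Ccl5 (1.70, 1.67 to 1.74), Lag3 (1.22, 0.97 to 1.47) and Cxcr6 (1.01, 0.87 to 1.14) than dividing barcodes. The granzyme cluster was counted in 55 of 110 dividing barcodes (exact interval 40.3% to 59.7%), against 65 of 133 members, which were shallower. Barcodes of NK cells (no CD3 UMI, at least 1 UMI each of Ncr1 and Klrb1c) numbered 7. They had Gzmb at 2340 CPM (2031 to 2682) and Prf1 at 1261 CPM (1037 to 1518), with no UMI of Gzmd, Gzme, Gzmf, Gzmg, Havcr2 or Pdcd1, which allows up to 34.1 CPM. Gzmc, the remaining gene of the cluster, had 8 UMIs in them (90.9 CPM, 39.2 to 179) against 68.0 CPM in members.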

How the data were processed

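Allografts from 1 vehicle-treated and 1 TAK-931-treated group were profiled by 3′ droplet sequencing. The deposited values are raw UMI counts for each gene and barcode, made by the authors with Cell Ranger 6.0.0 on mm10 per the submitters' processing notes (the methods name a human build) without normalization. Depth is 5510 to 37054 UMIs per member, and the precision given is that of counting.

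UMIs were summed per class and scaled to the class total (CPM). Genes needed 50 UMIs over the sums compared, and called means past 2-fold. Where a count was 0, 0.5 UMI was added. Intervals are exact Poisson (CPM), exact conditional binomial (ratios), Clopper-Pearson (shares above 0; a share or level of 0 has a limit of 3 counts) and Newcombe (differences). Shares of barcodes with a UMI used thinning to 4000 UMIs, and no barcode was shallower. The text names the genes with the 15 highest and 15 lowest ratios, among genes in at least 10% of barcodes of the higher side with no barcode over 20% of the UMIs, without gate, mitochondrial, ribosomal, haemoglobin, immunoglobulin, receptor segment and unnamed genes. In each gene list the 3 genes with the highest CPM or largest ratios could be named too. Results for 2 genes are not reported here. Members and lists were chosen with earlier results of these data known. The methods name no doublet step and none was called here, so barcodes over 2 times the median UMIs, or of mixed content, were left out as alternatives. Of 32285 features 32235 matched GENCODE vM21. The scripts were tested on simulated data. Python 3.11.15, numpy 2.4.6, scipy 1.17.1, pandas 2.3.3, matplotlib 3.10.9 and biopython 1.88 were used.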

Additional observations from a re-analysis of the deposited data

Results flagged for a closer look

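Barcodes with at most 2000 genes, which the gate leaves out, held further barcodes that met all other limits. They numbered 46 of 1663 in the TAK-931 library (2.77%, exact Clopper-Pearson interval 2.03 to 3.67) and 5 of 950 in the vehicle library (0.526%, 0.171 to 1.22). Their median depth was 3893 and 4319 UMIs, and 61 and 3 barcodes of the same low-gene gate had no Gzmb UMI. Of the low-gene barcodes in the CD8 gate they made up 31.9% (46 of 144, 24.4 to 40.2) in the TAK-931 and 45.5% (5 of 11, 16.7 to 76.6) in the vehicle library, where the order was the opposite and the intervals overlapped. They were picked out because the comparisons above do not use them and their share of all low-gene barcodes was above that in the control library.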

How the results depend on the processing

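With 1 library per group no replicate could be left out and no spread between animals was measured, and counts near the threshold of 3 Gzmb UMIs depend on depth. No paired analysis was possible because each group had 1 library. Of 54 recomputed shares 22 moved beyond their counting interval, 20 of them shares of barcodes with a UMI at another thinning depth or without thinning. Prf1 was detected in 30.1% of members and 12.1% of Gzmb-negative barcodes at 2000 UMIs and in 81.2% and 26.4% without thinning, Ifng in 18.0% and 4.40% and in 54.1% and 25.3%, and Tcf7 in 0% of members (0 of 133, which allows up to 2.26%, 3 counts of 133) and 16.5% at 2000 UMIs. Of 256 list medians 7 moved beyond their interval, as did 28 of 480 ratios of named genes, and 6 of 32 gene counts moved by over 1.5 times. No named gene changed sign, but the medians of the effector and exhaustion transcription factor, homing, cytokine receptor, T cell receptor signalling, S phase, G2/M, interferon and MHC class I lists did under at least 1 alternative, staying between -0.21 and 0.59. The share of the TAK-931 CD8 gate with high Gzmb was 44.8% with over 500 genes per barcode and 40.7% with at least 5 Gzmb UMIs. Without the limit on dividing, 312 genes were higher and 172 lower, and the medians were 0.48 for inhibitory receptors, 0.46 for G2/M and -0.048 for MHC class I genes. A gene minimum of 20 UMIs gave 513 higher and 288 lower genes and an inhibitory receptor median of 0.45, and a minimum of 200 UMIs, which tests fewer genes, gave 43 and 19, 1.34 and a naive and memory median of -0.20. Barcodes of 8000 to 25000 UMIs gave an inhibitory receptor median of 1.08. For the other values the cause was not tested. Limits of over 1000 genes, under 10% or no mitochondrial UMIs, at least 2 Gzmb UMIs for members and 0 to 2 for the contrast, no barcode over 2 times the median UMIs, median-ratio scaling and the mean of each cell's CPM kept each gene count within 1.5 times and each list median within its interval. So did leaving out barcodes of mixed content, chosen after seeing the data, which left 129 members and 86 Gzmb-negative barcodes. Over all alternatives the cytotoxic granule median lay between 0.66 and 0.98.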
